A study of Mus musculus with 60 samples.

Results

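The complement genes of the panel's C1q, C3 and receptor group were read across brain regions, tumor status and time of day. The group was chosen by gene symbol from a table of 770 genes and holds 8 of them, C1qa, C1qb, C1qc, C3, C3ar1, C5ar1, C6 and Serping1. All 8 symbols were found in the table, and all 8 were tested in every comparison. RNA came from the hippocampus (HPC), hypothalamus (HYP) and brain stem (BS) of 20 female Balb/C mice, aged 13 weeks at collection, with 5 mice in each of 4 groups. Tumor mice carried tumors grown from 67NR cells, a mammary carcinoma line that forms non-metastatic tumors and came from a single spontaneous tumor, injected into the inguinal mammary glands on both sides, and vehicle mice had received the medium DMEM alone at the same sites. All mice were kept in a light:dark cycle and perfused with buffered saline before the brains were taken 25 days after injection. Collection was in the middle of the dark phase (ZT19, mid-dark) or of the light phase (ZT7, mid-light), where ZT counts hours from lights on. Of 60 listed samples, 56 had values, 20 from HPC, 17 from HYP and 19 from BS. The 4 not analysed here were vehicle samples, HYP of 1 mid-light mouse, HYP of 2 mid-dark mice and BS of 1 mid-dark mouse, so that the vehicle mid-dark group had 3 mice in HYP. The labels state that outliers were removed on the raw data before normalization. Each region is bulk tissue, in which fewer cells of a type and less RNA per cell cannot be told apart.

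Complement is a cascade of proteins that tags material for removal and can open membranes. C1qa, C1qb and C1qc encode the A, B and C chains of C1q, the recognition molecule of the classical pathway, and in the brain these chains are made chiefly by microglia, the resident macrophages. C3 is the central component on which the activation routes converge, and its cleavage releases the fragment C3a, whose receptor is C3ar1. C5ar1 is the receptor of the later fragment C5a, C6 is a component of the membrane attack complex, and Serping1 is the C1 inhibitor, which blocks the proteases that work with C1q. C1q and C3 are known in the brain for marking synapses for removal by microglia.

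The C1q genes are neighbours in the mouse genome. In the RefSeq annotation of assembly GRCm38.p6 the 3 genes were consecutive protein-coding genes of chromosome 4, in the order C1qb, C1qc and C1qa, whereas C3 lay on chromosome 17. RefSeq promoter sequences, from 250 bases before to 50 bases after the annotated start, were at hand for 6 of the 8 genes. The windows of C1qb, C1qc and C3 are shown because the C1q genes moved together and C3 moved against them between regions. Coordinates are those of GRCm38.p6, all on the minus strand, and each sequence is written 5′ to 3′ along its gene. Capitals mark matches, on either strand, to GAGGAA (a purine box of the PU.1 type) or to TTNNGNAA (a C/EBP type motif).

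C1qb promoter, chr4:136886151-136886450: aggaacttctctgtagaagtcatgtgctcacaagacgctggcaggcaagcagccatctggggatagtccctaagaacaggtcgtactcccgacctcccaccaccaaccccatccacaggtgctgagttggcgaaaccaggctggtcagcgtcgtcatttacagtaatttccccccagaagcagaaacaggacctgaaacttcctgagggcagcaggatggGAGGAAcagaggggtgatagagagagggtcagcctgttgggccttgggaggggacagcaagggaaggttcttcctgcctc

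C1qc promoter, chr4:136892865-136893164: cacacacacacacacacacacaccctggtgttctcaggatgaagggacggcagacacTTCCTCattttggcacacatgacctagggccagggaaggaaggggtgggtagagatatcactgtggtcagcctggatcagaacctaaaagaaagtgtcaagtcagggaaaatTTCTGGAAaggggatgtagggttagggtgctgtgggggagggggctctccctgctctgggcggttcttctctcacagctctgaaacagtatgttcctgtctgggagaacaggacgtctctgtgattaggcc

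C3 promoter, chr17:57228087-57228386: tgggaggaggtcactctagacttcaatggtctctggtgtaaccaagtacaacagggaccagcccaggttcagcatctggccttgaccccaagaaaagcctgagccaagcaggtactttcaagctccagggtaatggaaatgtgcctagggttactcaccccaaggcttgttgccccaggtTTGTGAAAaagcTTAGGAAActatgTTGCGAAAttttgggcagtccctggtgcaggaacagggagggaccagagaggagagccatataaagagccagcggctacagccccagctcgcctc

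GAGGAA was found once in the window of C1qb, starting at base -30 from the gene start, and once in that of C1qc, on the opposite strand at base -193. Of all 32851 mouse promoter windows of the same length, 28.3% held this motif on either strand. The C3 window held TTNNGNAA at bases -70, -58 and -45, the last of which also matched on the opposite strand, and C1qc held it once, at base -81. Of all windows 40.7% held TTNNGNAA. C5ar1 held 1 match and C6 held 2 matches to TTNNGNAA, so 4 of the 6 windows had it and 2 of the 6 had GAGGAA. The E-box, CACGTG, was in 7.15% of all windows, and an interferon regulatory factor type motif in 3.44%, and neither was in any of the 6. No motif matches overlapped apart from the C3 site that matched on both strands. A match describes the letters of a window and no binding was measured.

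The mean log2 value of the forebrain markers lay between 10.52 and 11.22 in HPC, between 6.93 and 8.23 in HYP and between 7.44 and 8.69 in BS. This mean sets the HPC libraries apart, as labelled, but does not tell HYP from BS. The marker Slc17a7 taken alone did, from 4.85 to 9.05 in HYP and from 9.52 to 10.63 in BS. The sample medians of all genes were nearly equal, from 8.07 to 8.09, because the values had been quantile normalized. The absorbance ratio recorded for each RNA, a measure of its purity, was under 1.8 in 6 of the 56 samples. Of these, 5 were BS samples, with 3 of the 5 tumor mid-dark mice (lowest ratio 1.34), 1 tumor mid-light mouse, 1 vehicle mid-light mouse and none of the vehicle mid-dark mice. All values below are log2 expression values, and a difference of 1 is a doubling. The probes of different genes are not on a common scale, so levels are compared between samples and not between genes.

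**Figure D1:**
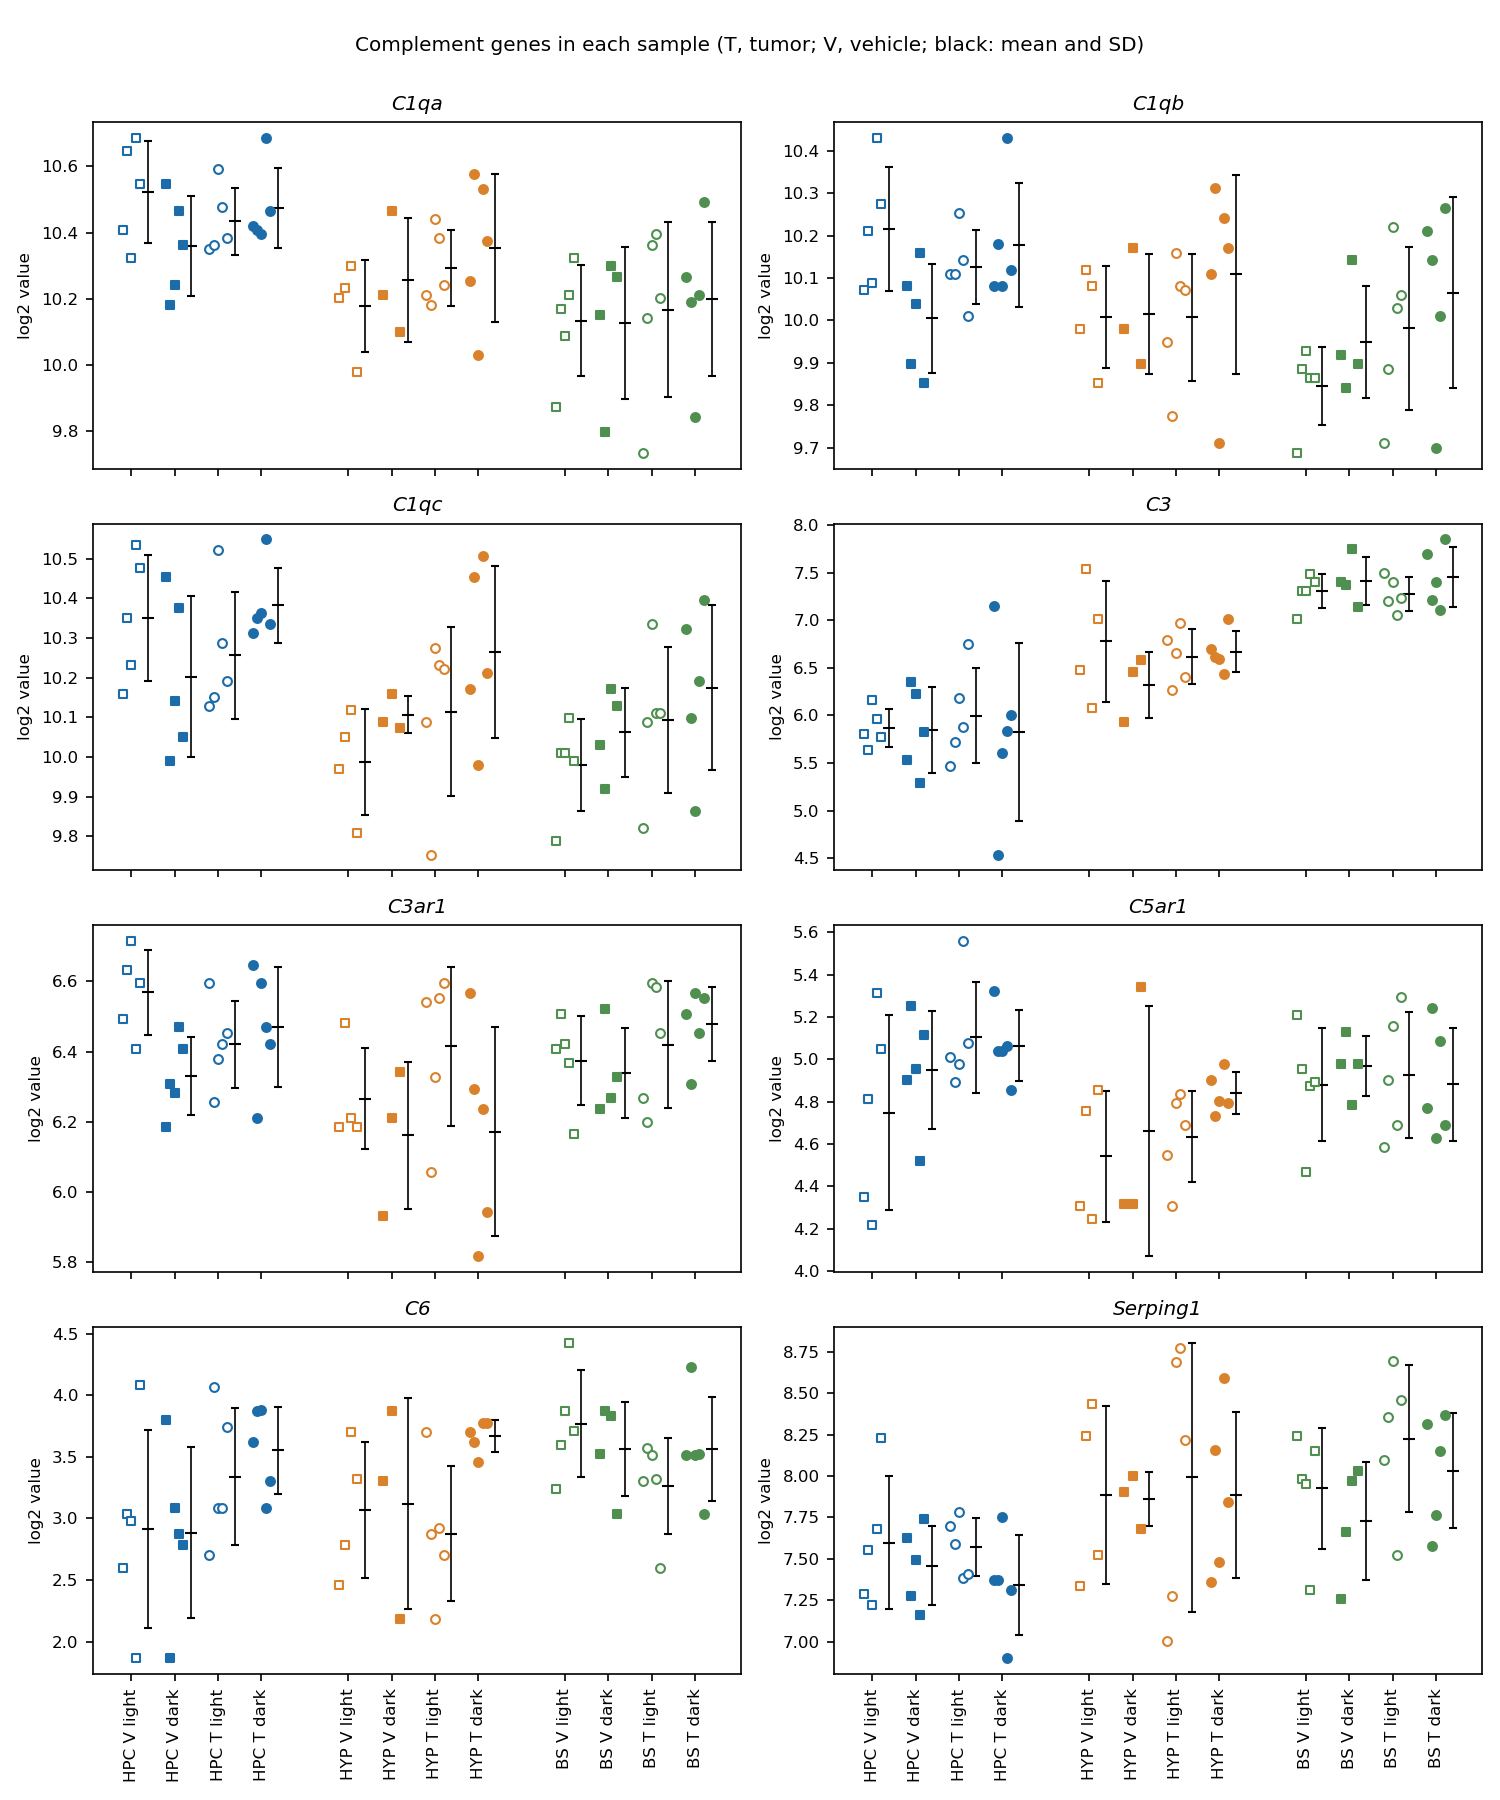
Log2 value (y axis) of each complement gene in every sample, by region, tumor status (T, tumor, circles; V, vehicle, squares) and time of day (filled, mid-dark; open, mid-light; x axis). Black marks give the group mean and SD. C3 rises from HPC to BS, where the regional medians were 5.83 and 7.37, while the tumor and vehicle points overlap in every region.

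The clearest differences among the 8 genes were between brain regions. Against HYP, 6 of the 8 genes differed in HPC in the fit across all regions with the mouse as a block, 4 higher (C1qa, C1qc, C3ar1 and C5ar1) and 2 lower (C3 and Serping1). Against BS, 6 of the 8 also differed in HPC, with C1qa, C1qb and C1qc higher and C3, C6 and Serping1 lower. Between HYP and BS, 3 of the 8 differed, and C3, C3ar1 and C5ar1 were all lower in HYP. A call here is a limma adjusted p under 0.05 over all genes of the panel. These regions differ widely, so the background is high. Of the 770 genes, 71.7% were called between HPC and HYP (30.3% higher and 41.4% lower in HPC), 76.6% between HPC and BS (34.9% higher and 41.7% lower in HPC), and 66.5% between HYP and BS (36.1% higher and 30.4% lower in HYP). The median difference of the 8 genes was 0.14 for HPC minus HYP, beside -0.05 over all genes, 0.05 for HPC minus BS, beside -0.03, and -0.11 for HYP minus BS, beside 0.02. The share of the 8 genes called was near the background in both HPC comparisons and below it between HYP and BS.

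C3, the hub of the cascade, had the largest regional difference of the 8 genes. Its log2 value ran from 4.54 through a median of 5.83 to 7.15 in the 20 HPC samples. In the 17 HYP samples it ran from 5.93 through 6.60 to 7.55. In the 19 BS samples it ran from 7.02 through 7.37 to 7.85. The order was HPC, HYP, BS, and the ranges of HPC and BS overlapped only through 1 HPC sample, that of tumor mid-dark mouse 3. Within mice, C3 was lower in HPC than in BS in 19 of 19 mice, with a within-mouse difference of -1.50 ± 0.55 (SD, n = 19) on the log2 scale, a level in BS 2.83 times that in HPC. It was lower in HPC than in HYP in 15 of 17 mice and lower in HYP than in BS in 15 of 16. The fitted differences were -1.48 (SE 0.13, limma adjusted p = 8.92e-15) for HPC minus BS, -0.72 (SE 0.13, adjusted p = 5.55e-06) for HPC minus HYP and -0.77 (SE 0.14, adjusted p = 2.5e-06) for HYP minus BS. Each of the 3 pairs of regions passed the test, though the range of HYP overlapped those of both other regions. The within-mouse difference of HPC minus HYP was -0.77 ± 0.70 (SD, n = 17). The HPC minus BS difference was between -1.55 and -1.42 with any 1 mouse left out, and -1.52 in samples with a absorbance ratio of at least 1.8. It was present in each tumor and time-of-day group, with within-mouse means of -1.63 in tumor mid-dark, -1.28 in tumor mid-light, -1.70 in vehicle mid-dark and -1.44 in vehicle mid-light mice.

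Among marker lists of other cell types, those of oligodendrocytes and endothelial cells kept the regional order of C3, and the others did not. The mean of the 6 oligodendrocyte markers had medians of 11.55 in HPC (range 10.74 to 12.07), 11.84 in HYP (11.51 to 12.16) and 12.91 in BS (12.66 to 13.08), the same order as C3. The 7 endothelial markers kept that order too, with medians of 7.40, 7.53 and 7.61. The 2 choroid plexus and ependyma markers did not, with medians of 9.90 in HPC, 5.31 in HYP and 8.29 in BS, and they varied widely within HPC, from 5.48 to 10.86. The 8 border and blood myeloid markers had medians of 4.83, 4.82 and 4.74. The 6 astrocyte markers had medians of 10.29 in HPC, 10.53 in HYP and 10.32 in BS. The 4 neuron markers had medians of 12.48, 11.91 and 12.23. None of these markers was at the lowest value of the table, and their part in the C3 difference was not tested.

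Serping1, which restrains C1q-associated proteases, followed C3 in direction. Its value ran from 6.90 through 7.45 to 8.23 in HPC, from 7.01 through 7.91 to 8.78 in HYP and from 7.25 through 8.03 to 8.69 in BS. All 3 ranges overlapped broadly. It was lower in HPC than in BS by 0.49 (SE 0.13, limma adjusted p = 0.000844), in 16 of 19 mice, and lower in HPC than in HYP by 0.42 (SE 0.14, adjusted p = 0.00578), in 12 of 17 mice. For HPC minus BS the within-mouse means were -0.69 at ZT19 and -0.65 at ZT7 in tumor mice. In vehicle mice they were -0.22 and -0.33, with single mice up to 0.37 at both times. In samples with an absorbance ratio of at least 1.8 the HPC minus BS difference was -0.35 (limma adjusted p = 0.0358). HYP and BS were not separated by the test (difference -0.07, 95% CI -0.35 to 0.21). With the mean of 13 reference genes subtracted, the HPC minus HYP difference was -0.31 and no longer passed the test (adjusted p = 0.0557).

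The C1q genes went the other way, and by less. C1qa ran from 10.18 through 10.41 to 10.69 in HPC, from 9.98 through 10.24 to 10.58 in HYP and from 9.73 through 10.20 to 10.49 in BS. C1qb ran from 9.85 through 10.11 to 10.43 in HPC, from 9.71 through 10.08 to 10.31 in HYP and from 9.69 through 9.92 to 10.26 in BS. C1qc ran from 9.99 through 10.32 to 10.55 in HPC, from 9.75 through 10.12 to 10.51 in HYP and from 9.79 through 10.10 to 10.40 in BS. For each chain HPC was the highest region by its median, and the ranges of the regions overlapped. C1qa was higher in HPC than in BS by 0.29 (SE 0.05, limma adjusted p = 2.73e-06), in 18 of 19 mice, and C1qc by 0.22 (SE 0.05, adjusted p = 6.56e-05), in 16 of 19. C1qb was higher by 0.17 (SE 0.05, adjusted p = 0.000908), in 15 of 19. Its within-mouse mean was 0.37 in vehicle mid-light mice, beside 0.08 in vehicle mid-dark, 0.11 in tumor mid-dark and 0.14 in tumor mid-light mice. The means of C1qa and C1qc were also highest in vehicle mid-light mice, at 0.39 and 0.37. In the other groups they were 0.27 to 0.28 and 0.16 to 0.21. Against HYP, C1qa and C1qc were each higher in HPC by 0.18 (adjusted p = 0.00285 and 0.0013), in 15 and 14 of 17 mice. The within-mouse mean was 0.39 for each of them in vehicle mid-light mice. In the other groups it was 0.12 to 0.14 for C1qa and 0.12 to 0.17 for C1qc. The C1qb difference from HYP was 0.10 and missed the threshold (95% CI 0.0026 to 0.20, adjusted p = 0.061), which it passed with reference genes subtracted (0.21, adjusted p = 0.00169) or without any 1 of mice 7, 8, 10, 29 and 32 (adjusted p between 0.022 and 0.0488). HYP and BS were not separated for any chain, with 95% CIs of -0.0042 to 0.22 for C1qa, -0.03 to 0.17 for C1qb and -0.07 to 0.14 for C1qc.

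The direction of the C1q difference turned when microglial transcript levels were taken as the reference. Of the 8 microglia markers on the panel, 7 were higher in HPC than in HYP and 7 higher than in BS, with median differences of 0.33 and 0.50. The exception was Sall1, a microglial transcription factor, which did not pass against HYP (adjusted p = 0.999) and was lower in HPC than in BS by 0.43 (difference -0.43, adjusted p = 7.01e-16). The mean of the 8 markers had medians of 9.16 in HPC (9.04 to 9.35), 8.72 in HYP (8.64 to 8.84) and 8.68 in BS (8.44 to 8.85), so the HPC range lay above both others. With this mean subtracted from each sample, C1qa was lower in HPC than in HYP by 0.26 (limma adjusted p = 2.4e-07), C1qb by 0.34 (5.68e-12) and C1qc by 0.26 (5.27e-08). Against BS they were lower in HPC by 0.23 (adjusted p = 8.84e-07), 0.36 (5.15e-13) and 0.30 (3.78e-10). On that scale 88.4% of all genes were called between HPC and HYP and 90.3% between HPC and BS, since the subtraction lowers every gene in HPC. Fcrls, a microglial Fc receptor-like gene, had the largest difference of the 8 markers, 1.40 between HPC and HYP. Without it the C1q differences from HYP shrank to -0.13, -0.21 and -0.12, all still called, and with the marker median in place of the mean they were -0.0025, -0.085 and -0.0010, none called. Against BS the C1qa call was lost with the median (-0.044, adjusted p = 0.337) and without Fcrls (-0.081, adjusted p = 0.055), while C1qb and C1qc were still called as lower in HPC in both.

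**Figure D2:**
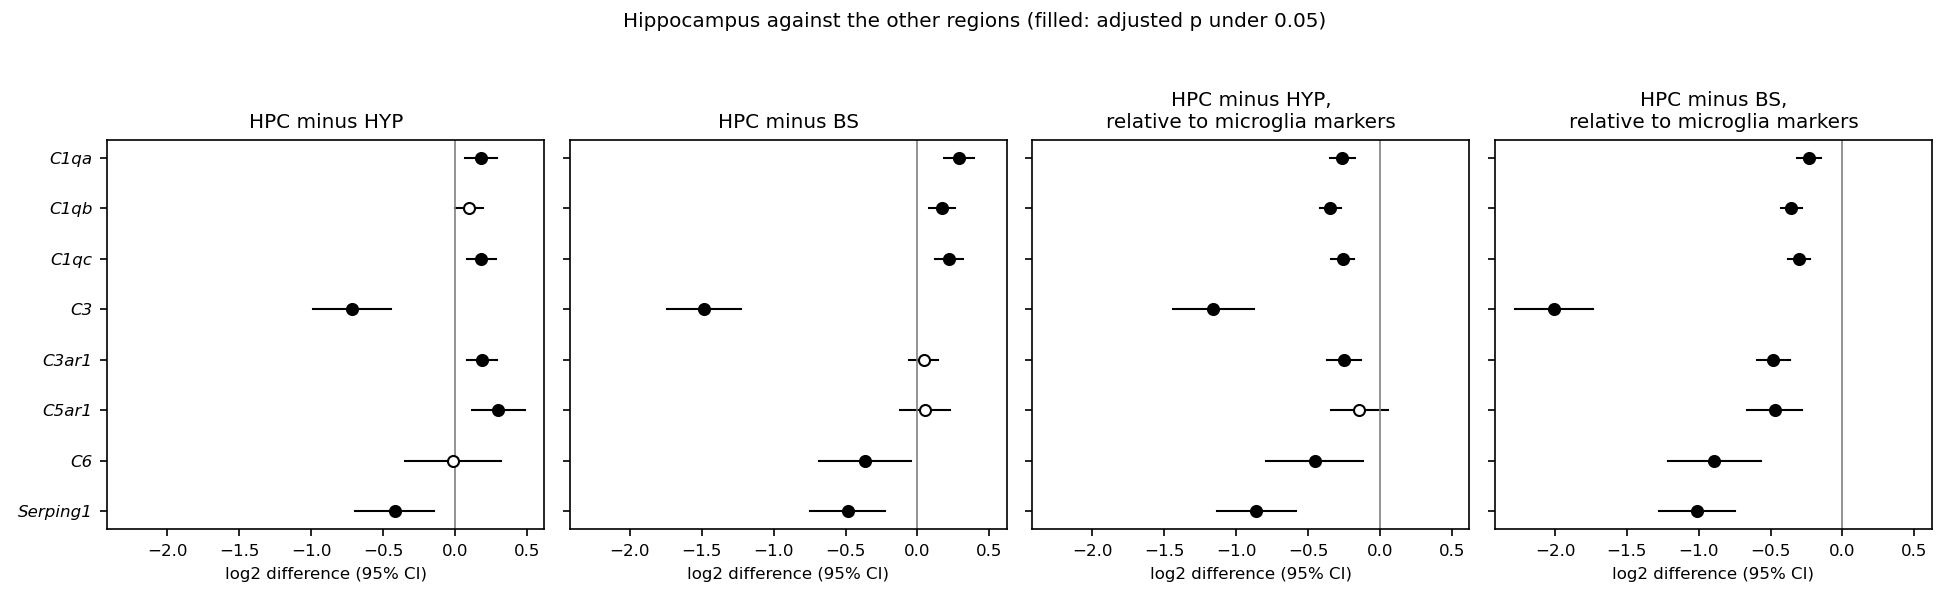
Log2 difference of each gene (points, with 95% CI) between HPC and HYP or BS, as normalized by the authors (left pair of panels) and after subtracting the mean of 8 microglia markers in each sample (right pair). Filled points passed a limma adjusted p under 0.05; C1qa lies at 0.18 and 0.29 on the left and at -0.26 and -0.23 on the right, while C3 is negative in all 4 panels.

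The receptors differed mainly in HYP. C3ar1 ran from 6.18 through 6.44 to 6.71 in HPC, from 5.82 through 6.24 to 6.60 in HYP and from 6.17 through 6.42 to 6.60 in BS. HYP was the lowest region by its median, with broad overlap. C3ar1 was higher in HPC than in HYP by 0.19 (SE 0.05, limma adjusted p = 0.00119), in 14 of 17 mice, and lower in HYP than in BS by 0.15 (SE 0.05, adjusted p = 0.0141). In tumor mid-light mice its within-mouse means were only 0.0059 for HPC minus HYP and -0.0047 for HYP minus BS. In the other groups they were 0.16 to 0.30 and -0.31 to -0.10. HPC and BS were not separated (difference 0.04, 95% CI -0.06 to 0.15). C5ar1 ran from 4.22 through 5.03 to 5.56 in HPC, from 4.25 through 4.76 to 5.34 in HYP and from 4.47 through 4.90 to 5.29 in BS. It was higher in HPC than in HYP by 0.30 (SE 0.09, adjusted p = 0.00308), in 16 of 17 mice, and lower in HYP than in BS by 0.25 (SE 0.09, adjusted p = 0.0167), while HPC and BS were not separated (0.05, 95% CI -0.12 to 0.23). Both HYP minus BS calls were lost in samples with a absorbance ratio of at least 1.8 (adjusted p = 0.0544 for C3ar1 and 0.0691 for C5ar1), and that of C5ar1 was also lost without mouse 4 (0.0762) or mouse 8 (0.0564). Relative to the microglia marker mean, the HPC minus HYP difference was -0.25 for C3ar1 (adjusted p = 0.000154) and -0.14 for C5ar1 (adjusted p = 0.165). The C3ar1 call on that scale was lost without Fcrls (-0.12, adjusted p = 0.0704) and with the marker median, where the difference was above 0 (0.0083, adjusted p = 0.904).

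C6, of the membrane attack complex, was measured at low values. It had 33 distinct values among 56 samples, close to the 34 of C1qb and of C3ar1, so repeats were not particular to C6. It ran from 1.87 through 3.09 to 4.08 in HPC, from 2.19 through 3.32 to 3.87 in HYP and from 2.59 through 3.52 to 4.42 in BS. It was lower in HPC than in BS by 0.37 (SE 0.16, limma adjusted p = 0.0353), in 12 of 19 mice. The within-mouse means were -0.43 at ZT19 and -0.86 at ZT7 in vehicle mice, but -0.01 and 0.08 in tumor mice. The tumor difference of C6 was not shown to vary between regions (F test, unadjusted p = 0.0533, adjusted p = 0.999). The pooled call was lost without any 1 of mice 1, 7, 8, 9, 12, 13, 19, 22 and 28, with an adjusted p of up to 0.115 (without mouse 22). The difference of HYP from BS was of similar size, -0.35, and missed the threshold (adjusted p = 0.0626). It passed with reference genes subtracted (-0.49, adjusted p = 0.00971), in samples with an absorbance ratio of at least 1.8 (-0.50, adjusted p = 0.0224) and without any 1 of mice 1, 8, 22, 23, 29, 30 and 32, and ran from -0.46 to -0.21 over the mice left out. HPC and HYP were not separated (difference -0.01, 95% CI -0.35 to 0.32).

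Other complement genes of the panel were read from a list of 34, of which 6 were present. C4a, a complement C4 gene with a near-identical copy (C4b) that its probe may not tell apart, was lower in HPC than in HYP by 0.75 (limma adjusted p = 1.81e-15), in 17 of 17 mice, and lower than in BS by 0.88 (adjusted p = 1.16e-18), in 19 of 19, in the direction of C3 and Serping1. Itgam, a subunit of complement receptor 3, was higher in HPC by 0.48 than in HYP (adjusted p = 3.58e-13) and by 0.55 than in BS (adjusted p = 7.01e-16), in every mouse, in the direction of the C1q genes. Pros1, an anticoagulant that binds a complement regulator, was lower in HPC than in HYP by 0.34 and than in BS by 0.22. Ptx3, a pentraxin that binds C1q, was higher in HPC than in HYP by 0.57. Itgax and Calr were called in no region pair. Of the 6 genes, 4 were called between HPC and HYP (2 higher and 2 lower in HPC), 3 between HPC and BS (1 higher and 2 lower) and 2 between HYP and BS (1 in each direction).

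The study asked whether a peripheral tumor changes gene expression in the brain, and whether the answer depends on the time of collection. None of the 8 complement genes passed the test for tumor against vehicle in any region at either time of day. In those 6 comparisons the limma adjusted p was under 0.05 for 0.13% of genes in HPC at ZT19 and 0.13% at ZT7, for 0% in HYP at either time, and for 0.26% in BS at ZT19 and 0.78% at ZT7, so very few genes of the panel were called at all. None of the 8 had an unadjusted p under 0.05 in any of the 6, and ordinary p values without moderation gave 0 calls among them too. Of the 6 other complement genes, 0 were called in HPC at ZT19 and 2 had an unadjusted p under 0.05 there, Ptx3 (difference -0.56, unadjusted p = 0.00211, adjusted p = 0.268) and Pros1 (0.21, unadjusted p = 0.0246, adjusted p = 0.634). In all 48 gene, region and time comparisons the tumor and vehicle samples overlapped, where 1.88% of such comparisons over all genes had groups free of overlap. Averaged over times of day, 0 of the 8 were called in HPC (background 0.52%), in HYP (0.26%) and in BS (1.04%), again with none at an unadjusted p under 0.05.

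The C1q genes in HPC illustrate the sizes involved. At ZT19, C1qb was 10.08, 10.18, 10.08, 10.43 and 10.12 in the tumor mice and 10.08, 9.90, 10.04, 10.16 and 9.85 in the vehicle mice. At ZT7 it was 10.11, 10.11, 10.25, 10.14 and 10.01 in the tumor mice and 10.07, 10.21, 10.09, 10.43 and 10.27 in the vehicle mice. Tumor values tended to be above vehicle values at ZT19 and below them at ZT7, with overlap at both times. The differences were 0.17 (95% CI -0.0026 to 0.35, limma adjusted p = 0.673) and -0.09 (95% CI -0.27 to 0.09, adjusted p = 0.836). C1qa and C1qc gave differences of 0.12 and 0.18 at ZT19 and -0.09 each at ZT7. The highest mid-dark tumor value of all 3 chains came from mouse 19. The change of the tumor difference between times was 0.26 for C1qb (95% CI 0.02 to 0.51, unadjusted p = 0.0388, adjusted p = 0.696) and 0.29 for C3ar1 (95% CI 0.03 to 0.54, unadjusted p = 0.0294, adjusted p = 0.662). With the microglia marker mean, the marker median or the mean without Fcrls subtracted, it was 0.13, 0.057 and 0.088 for C1qb and 0.15, 0.081 and 0.11 for C3ar1. The microglia markers had a median tumor difference of 0.02 in HPC at ZT19 and of -0.14 at ZT7, where 0 of 8 were called and 3 had an unadjusted p under 0.05. C1qb and C3ar1 had the only unadjusted values under 0.05 among the 8 genes for tumor by time of day in any region, and none of the genes was called in HPC, HYP or BS, where 0% of all genes passed that test.

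For C3 in HPC the tumor mice spread more widely. At ZT19 the values were 7.15, 4.54, 5.61, 5.84 and 6.01 in the tumor mice and 5.54, 6.36, 6.23, 5.29 and 5.83 in the vehicle mice. At ZT7 they were 5.46, 5.72, 6.18, 5.87 and 6.75 in the tumor mice and 5.80, 5.64, 6.17, 5.96 and 5.77 in the vehicle mice. Both the lowest and the highest value of HPC were from tumor mid-dark mice, mouse 7 and mouse 3. The differences were -0.02 (95% CI -0.75 to 0.71) and 0.13 (95% CI -0.60 to 0.86), intervals that leave room for changes in either direction. In BS, where C3 varied less, they were 0.04 (95% CI -0.28 to 0.36) and -0.03 (95% CI -0.33 to 0.27).

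C6 gave the largest fitted tumor differences. In HPC it was 3.62, 3.87, 3.88, 3.09 and 3.30 at ZT19 and 2.70, 4.07, 3.09, 3.09 and 3.74 at ZT7 in the tumor mice. In the vehicle mice it was 3.80, 1.87, 3.09, 2.87 and 2.79 at ZT19 and 2.59, 3.04, 2.98, 1.87 and 4.08 at ZT7. The value of 1.87 occurred in 2 vehicle mice and in no tumor mouse, and the ranges overlapped at both times. Averaged over times the difference was 0.55 (95% CI -0.0040 to 1.10, unadjusted p = 0.0515, limma adjusted p = 0.777). In BS at ZT7 C6 was lower in the tumor mice by 0.51 (95% CI -1.02 to 0.0050, adjusted p = 0.976), and the lowest tumor value there, 2.59, came from mouse 29, whose RNA had a absorbance ratio of 1.51.

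Serping1 was higher by 0.30 in BS of tumor mice at both times (95% CI -0.20 to 0.81 at ZT19 and -0.18 to 0.78 at ZT7), without passing the test. The low absorbance ratios lay mainly in BS of tumor mice, and their part in these values was not tested. With the ratio as a covariate, or in samples with a ratio of at least 1.8, 0 of the 8 genes were called for tumor in BS at either time. The count was already 0 in the main fit, and the cutoff drops 3 of the 5 tumor mid-dark samples. The refits therefore cannot show that part.

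**Figure D3:**
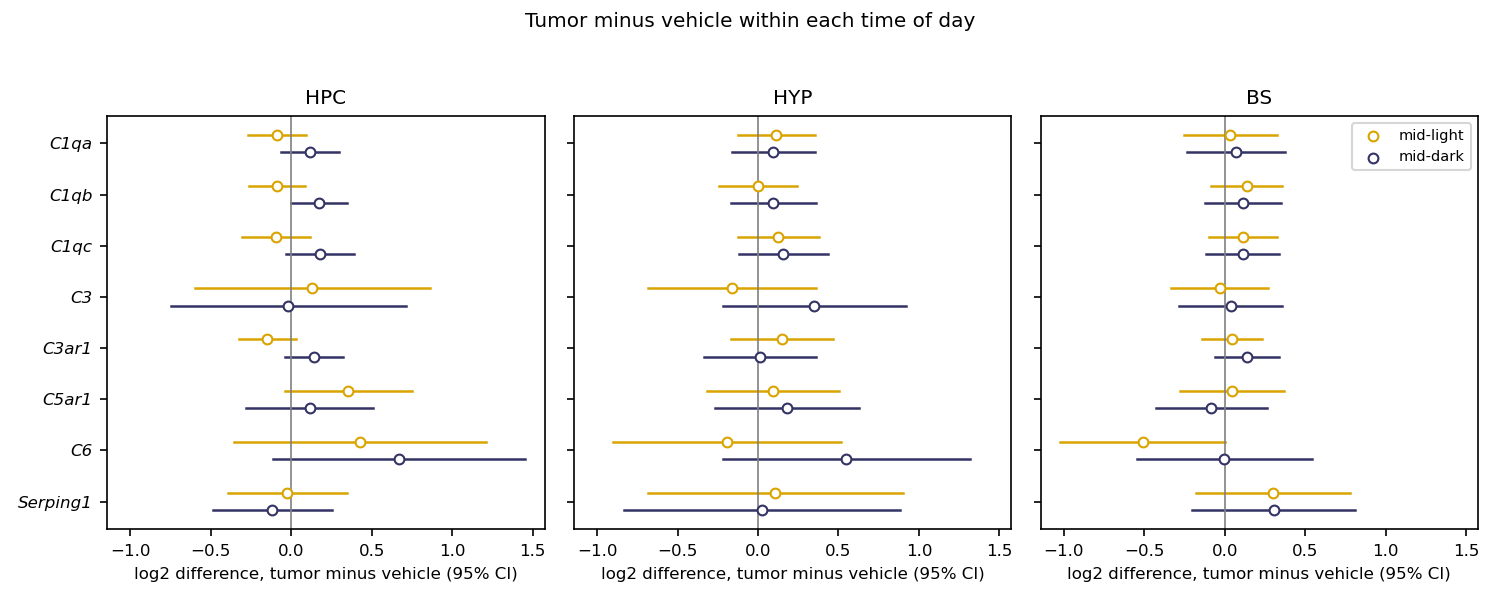
Tumor minus vehicle log2 difference of each gene (points, with 95% CI, x axis) in HPC, HYP and BS, at ZT7 and at ZT19. All points are open because none passed a limma adjusted p under 0.05; the intervals are narrow for the C1q genes and wide for C3 in HPC, C6 and Serping1 in HYP.

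Averaged over the 3 regions with the mouse as a block, 0 of the 8 genes were called for tumor, against 2.34% of all genes. The differences of the 8 were all above 0, from 0.05 to 0.16 with a median of 0.09, beside -0.01 over all genes. Within single regions the sign was not shared. In BS the tumor mean was lower for C6 (3.41 against 3.68 in vehicle mice) and C5ar1 (4.90 against 4.92). In HPC it was lower for Serping1 (7.46 against 7.53) and C3ar1 (6.44 against 6.45). The other tumor means were higher. C1qc had the only unadjusted p under 0.05, with a difference of 0.10 (95% CI 0.0038 to 0.20, unadjusted p = 0.0421, limma adjusted p = 0.47). It was 0.06 in samples with an absorbance ratio of at least 1.8 (adjusted p = 0.752). With the reference gene mean subtracted it was 0.08 (adjusted p = 0.661), and with quantile normalization within each region 0.10 (adjusted p = 0.471). Relative to the microglia marker mean, C1qc was higher in tumor mice by 0.15 (95% CI 0.07 to 0.22, adjusted p = 0.00967) and C1qb by 0.12 (95% CI 0.05 to 0.19, adjusted p = 0.0373), on a scale where 3.12% of genes were called. C1qa was at 0.10 on that scale (adjusted p = 0.178). The C1qc call held with the marker median (adjusted p = 0.0487) and without Fcrls (adjusted p = 0.021), and that of C1qb was lost in both (0.148 and 0.0792). Both of these settings were chosen after seeing the data. Of the 8 markers themselves 0 were called for tumor, 1 had an unadjusted p under 0.05 (Fcrls, -0.11, adjusted p = 0.521) and their median difference was -0.04. The tumor difference was not shown to vary between regions for any of the 8 genes or for any gene of the panel (limma F test, 0%), with the smallest unadjusted p among the 8 at C6 (0.0533).

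Time of day itself gave no call among the 8 genes. Averaged over tumor groups, 0 of 8 differed between mid-dark and mid-light in HPC (background 5.59%), in HYP (2.34%), in BS (4.94%) or averaged over regions (13.5%). None had an unadjusted p under 0.05, with limma or with ordinary p values. By role, the mid-dark minus mid-light differences averaged over regions were 0.01, 0.02 and 0.07 for C1qa, C1qb and C1qc, with 95% CIs within -0.10 to 0.17. They were -0.05 for C3 (95% CI -0.31 to 0.21), -0.09 for C3ar1 (-0.19 to 0.02), 0.10 for C5ar1 (-0.08 to 0.27), 0.18 for C6 (-0.14 to 0.51) and -0.14 for Serping1 (-0.41 to 0.12). The time-of-day difference was not shown to vary between regions for any of the 8 (background 0.26%). Of the other complement genes 1 was called. Calr, a chaperone that also binds C1q at the cell surface, was higher at ZT19 by 0.49 in HPC (limma adjusted p = 0.000217), by 0.18 in HYP (0.0317), by 0.38 in BS (5.28e-05) and by 0.35 averaged over regions (4.67e-11).

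How the genes varied together between mice was read after the mean of each group was removed. Of the 84 pairs (28 in each region), 12 had an adjusted p under 0.05 in a two-sided permutation test, and all 9 pairs of C1q chains were among them. Their Pearson r was between 0.79 and 0.92 and their Spearman rho between 0.70 and 0.94, with adjusted p values for r between 0.00021 and 0.00728. Without the 2 samples farthest from the median, r was still between 0.69 and 0.86. The genes of a pair were measured in the same library, so shared errors of a library are part of these values.

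The other 3 pairs tied Serping1 to the C1q chains in HYP. The r was 0.68 with C1qa (rho 0.71, adjusted p = 0.0111), 0.67 with C1qb (rho 0.76, adjusted p = 0.024) and 0.78 with C1qc (rho 0.84, adjusted p = 0.0111), over 17 mice in a permutation test. The same pairs had r between -0.03 and 0.19 in HPC and between 0.17 and 0.34 in BS, and the difference between regions was not tested. With the reference gene mean subtracted they had r between 0.28 and 0.41 in HPC and between 0.26 and 0.41 in BS. In HYP r was then between 0.75 and 0.83, and only the HYP pairs passed adjustment. C3 and its receptor C3ar1 had r of 0.36 in HPC, 0.38 in HYP and -0.02 in BS, and C3 and the C1q chains had r between -0.27 and 0.38, none of which passed adjustment.

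**Figure D4:**
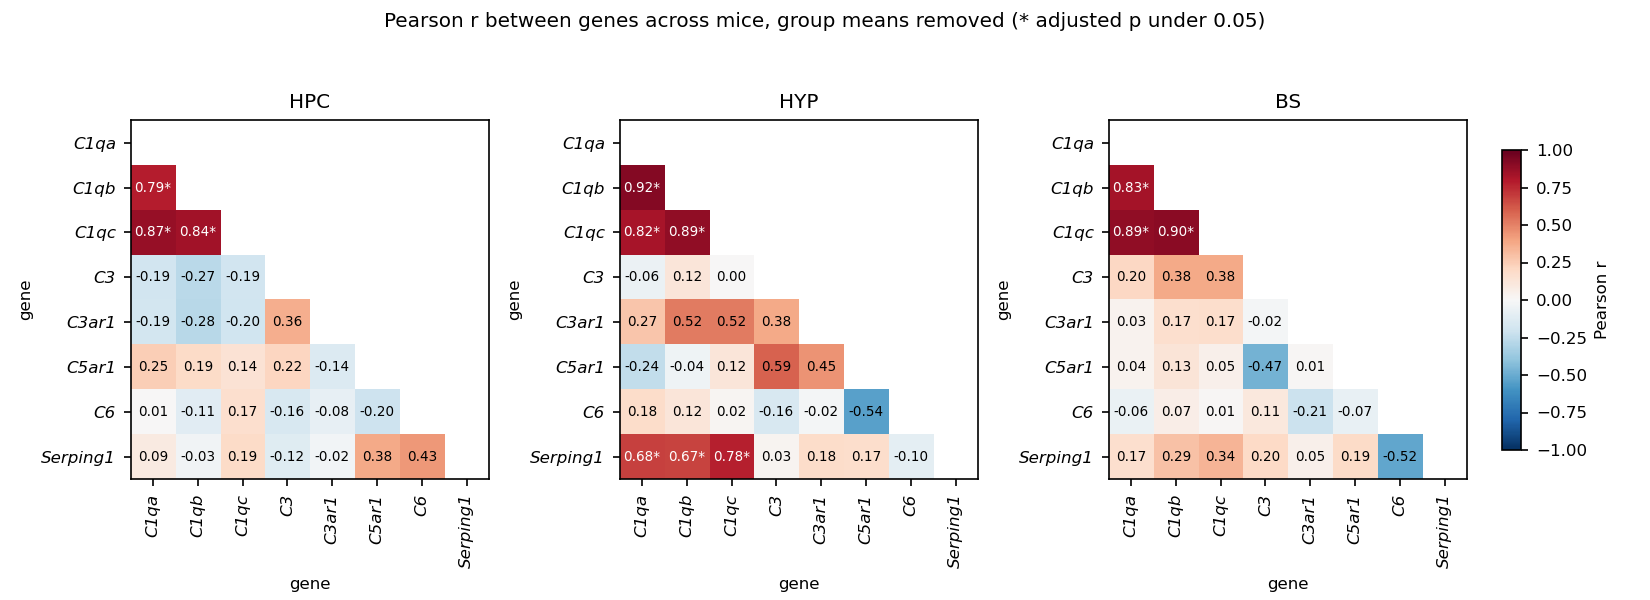
Pearson r between the 8 genes across mice in HPC, HYP and BS after group means were removed (colour and printed value; both axes list the genes). Asterisks mark an adjusted p under 0.05 over 84 pairs; the C1q block is dark red in all 3 regions and the Serping1 row is marked with the C1q genes in HYP alone.

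A mouse with a high value in 1 region was not shown to have one in another. None of 24 relations between regions of the same mouse passed adjustment in the permutation test (smallest adjusted p = 0.455), with 2 at an unadjusted p under 0.05. These were C1qa between HPC and BS (r = 0.51, rho = 0.66, n = 19, r = 0.58 without the 2 farthest mice) and C1qb between HYP and BS (r = 0.65, rho = 0.51, n = 16, r = 0.35 without them). Of the 24 relations 16 had r above 0, among them all of those of the C1q chains (r between 0.19 and 0.65). With total tumor mass, none of 24 relations passed adjustment. The strongest was that of Serping1 in HPC, over the 10 tumor mice and within time of day (r = 0.81, rho = 0.81, permutation p = 0.00212, adjusted p = 0.0509). By rank its adjusted p was 0.213. Its r was 0.85 without the 2 mice whose mass, less the mean of their time of day, lay farthest from the median. In the same mice Serping1 had r of -0.07 in HYP and -0.05 in BS. At ZT19 Serping1 in HPC was 6.90 in the mouse with the smallest mass (3.24 g) and 7.75 in that with the largest (5.00 g), and at ZT7 7.41 at 2.31 g and 7.78 at 4.67 g.

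The genes of the panel whose pattern was most like each of the 8 were named by Pearson r over 56 samples after the 12 group means were removed, as a description. C1qa was nearest to Csf1r (0.79), Ctss (0.75) and Tmem119 (0.72), C1qb to Ctss (0.79), Tmem119 (0.70) and S100a10 (0.67), and C1qc to Ctss (0.76), Tyrobp (0.69) and Csf1r (0.68). Csf1r and Tmem119 are 2 of the 8 microglia markers. Serping1 was nearest to Fgl2 (0.89), Cp (0.86) and Ifitm3 (0.79). C3 was nearest to Cd109 (0.62), St8sia6 (0.54) and Tgfa (0.51), and C3ar1 to Cd109 (0.56), Fcgr2b (0.53) and Dock2 (0.48). For C5ar1 the genes named here are Cxcl10 (0.56) and Plekhm1 (0.46). For C6 no gene came above 0.41 (Casp8), followed by Steap4 (0.38) and Itgav (0.35).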

How the data were processed

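The nanoString nCounter Mouse Neuroinflammation Panel was run on total RNA of 3 brain regions. The authors subtracted the negative background, normalized to positive controls and to codeset content (geometric mean) in nSolver, and quantile normalized in Partek. For 770 genes in 56 samples the deposited table holds log2 values, from -0.37 to 15.36, of which 60 equal the lowest. With no raw counts used, sample depth is unknown and precision depends on how many mice were measured. Groups came from the labels. The mouse number pairs the regions, since each mouse gave all 3.

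Tests used limma 3.58.1 (R 4.3.3), per region with 4 group means, and over regions with 12 group means and the mouse as a random block (duplicateCorrelation, consensus 0.136), with Benjamini-Hochberg adjustment over all genes. A gene constant in a region (1 in HPC and 1 in BS) was not tested there. Correlations were tested with 100000 permutations within groups (Python 3.11.15, numpy 2.4.6). On simulated data, a log2 difference of 0.3 was recovered in 89% of 100 changed genes for tumor averaged over regions. It was recovered in 76% in HPC, 69% in HYP and 73% in BS. Another 100 genes were changed by 1 in the same data, which eases the adjustment, whereas few genes were called for tumor here. Comparisons within a time of day were not simulated, so these shares do not give the power of the tumor tests. Named genes were the 8 members, the other complement genes of the panel and the 3 most alike genes of each, of which a single gene is not reported here. Members and lists were chosen with earlier results of these data known. Alternatives covered ordinary p values, a mean log2 value of at least 5, other scalings, the absorbance ratio, the block and each mouse left out.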

Additional observations from a re-analysis of the deposited data

Results flagged for a closer look

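In 88 groups of 4 or 5 samples, 7 values stood apart from the rest of their group by Dixon's ratio, where chance flags about 1 in 20. In HPC of tumor mid-dark mice, mouse 19 was highest for all 3 C1q chains, with 10.69 for C1qa (next 10.46), 10.43 for C1qb (next 10.18) and 10.55 for C1qc (next 10.36). C1qb in BS of vehicle mid-light mouse 2 was lowest at 9.69 (next 9.86), in a sample with a absorbance ratio of 1.72. C3ar1 in HYP of vehicle mid-light mouse 6 was highest at 6.48 (next 6.21), and C5ar1 in HPC of tumor mid-light mouse 13 was highest at 5.56 (next 5.08). C6 in BS of tumor mid-light mouse 29 was lowest at 2.59 (next 3.30), with a absorbance ratio of 1.51.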

How the results depend on the processing

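Of the 86 recomputed counts of calls that were above 0 as first computed, 82 stayed within 1.5 times. The tumor and time-of-day counts were at 0 and say little of stability. With the microglia marker mean subtracted, 2 genes were called for tumor averaged over regions, and 1 with the marker median and 1 without Fcrls, against 0. With the marker median, 2 genes were called between HPC and HYP against 6, and 5 between HYP and BS against 3. Without each mouse in turn, the count between HYP and BS ran from 2 to 5 (5 without mouse 23 or mouse 30, gaining C1qa and C6), that between HPC and HYP from 6 to 7 and that between HPC and BS from 5 to 6. Directions reversed for HPC minus HYP as follows. For C1qa the values were -0.26 with the marker mean, -0.0025 with the median and -0.13 without Fcrls, for C1qb -0.34, -0.085 and -0.21, and for C1qc -0.26, -0.0010 and -0.12. C3ar1 gave -0.25 with the mean and -0.12 without Fcrls, and C5ar1 gave -0.14 and -0.0064, while the median left them at 0.0083 and 0.12, not called. For HPC minus BS, C1qa gave -0.23, -0.044 and -0.081, C1qb gave -0.36, -0.16 and -0.20, and C1qc gave -0.30, -0.11 and -0.15. The marker median and the set without Fcrls were chosen after seeing the data. Without the replicate block, which pairs the regions of a mouse, 6, 6 and 3 genes were called for the region pairs, as with it, and C3 for HPC minus BS was -1.48. The depth is unknown, and the low values of C6 limit what differences can be seen in it.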
